A study of Mus musculus with 3 samples.

Results

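Kruppel-like factors are transcription factors whose zinc fingers at the C-terminal end bind GC-rich and CACCC sequences, while their divergent N-terminal parts recruit activators or repressors. Described here are the family's genes Klf2, Klf3, Klf4, Klf5, Klf6, Klf7, Klf9, Klf10, Klf12 and Klf13, and they were chosen by name from probe sets that the platform annotation assigns to 1 gene. Klf1, the erythroid member, was left out of the set. The 10 genes make up 10 of the 19938 genes measured, and each had 1 probe set. All values come from 3 arrays of wild-type C57Bl/6 mice aged 6 to 10 weeks, called arrays 1, 2 and 3 after their replicate numbers. Bone marrow cells had been sorted for c-Kit, Sca-1 and CD150 and against lineage markers, CD41 and CD48, a gate known as KLS SLAM that enriches for haematopoietic stem cells. There was no second genotype or treatment, and the labels do not say whether the arrays came from separate animals, so the spread between arrays may be technical.

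In blood cells the family is best known for control of quiescence, trafficking and lineage choice. Klf2 keeps mouse T cells quiescent and drives the trafficking receptor S1pr1, Klf4 promotes monocyte differentiation and is a reprogramming factor, and Klf6 is needed for yolk sac haematopoiesis in the mouse. Several members, including Klf2, Klf4, Klf6 and Klf10, are also induced rapidly by serum, growth factors or stress.

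Values are log2 of the linear intensities that the authors deposited, and n = 3 arrays throughout. Each probe set has its own affinity, so the levels of single members were not ranked against each other. The background limit and the median levels of lists do set different genes side by side, so affinity enters those. A gene was called above the background range when, on each of the 3 arrays, it exceeded the 95th percentile of 1227 olfactory, vomeronasal and taste receptor genes, which marrow cells are not expected to express. The limits of arrays 1, 2 and 3 were 6.30, 5.98 and 5.77 log2, and 39.3%, 49.1% and 55.2% of all genes passed them. A gene below the limit is not thereby shown to be absent, nor one above it to be transcribed. Between pairs of arrays the median absolute difference of a gene was 0.25 to 0.26 log2 over all genes and 0.19 to 0.21 over the Kruppel-like genes.

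Of the markers of the gate, 4 were measured, and 1 of them went against it by RNA signal. The gate sorts cells by surface protein, so RNA signal does not show whether the sorting held. Kit was at 10.01 ± 0.23 log2 and Slamf1, the CD150 gene, at 6.51 ± 0.13 (SD, n = 3 each), both above the range. Slamf1 exceeded the limit of array 1 by only 0.11, and of these genes Kit alone passed with the 99th percentile as the limit. Of the excluded markers, Cd48 passed the limit of array 3 alone, at 5.46 ± 0.77, whereas Itga2b, the CD41 gene, was above the range, against the gate, at 6.37 ± 0.14. Ly6a, the Sca-1 gene, is not analysed here. Of the stem cell identity list 8 of 9 measured genes were above the range, of the granulocyte list 9 of 12, of the megakaryocyte and platelet list 5 of 6, of the stroma and endothelium list 5 of 10, of the monocyte, macrophage and dendritic list 4 of 9, of the erythroid list 3 of 7, and of the lists for mast cells with basophils and eosinophils, for T with NK cells and for B cells 2 of 6, 2 of 10 and 1 of 7. Of all genes 36.8% were above the range, and the erythroid, monocyte and mast cell lists were near that share, at 42.9%, 44.4% and 33.3%. With the 99th percentile as the limit the identity count was 4, the granulocyte count 7 and the megakaryocyte and stroma counts 0. Without array 1 the erythroid count was 5 of 7 and the B cell count 4 of 7, beside 46.9% of all genes. The granulocyte genes, which the lineage gate should remove, averaged 8.10, 8.75 and 8.80 log2 on arrays 1, 2 and 3. Several Kruppel-like factors are also expressed in mature blood cells, and what part such cells had in the values below was not tested.

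Sequence upstream of the start site is shown for 3 members: Klf2 and Klf4 because MEF2 genes, known regulators of both, were measured in the same cells, and Klf3 because its protein reads CACCC boxes. Each is the 250 bases before the RefSeq start site on GRCm38.p6, and 8 of the 10 members matched the promoter table. Klf2 lies at chr8:72318812-72319061 on the plus strand, with a match to the core of the MEF2 binding motif (CTA and TAG with any 4 bases between them, the same on both strands) in capitals.
Klf2: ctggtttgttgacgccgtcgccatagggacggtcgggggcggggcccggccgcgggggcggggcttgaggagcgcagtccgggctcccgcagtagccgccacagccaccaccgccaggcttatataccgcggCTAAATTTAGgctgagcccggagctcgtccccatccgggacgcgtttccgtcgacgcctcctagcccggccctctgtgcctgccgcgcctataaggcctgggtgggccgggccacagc
Klf4 lies at chr4:55532476-55532725 on the minus strand, with matches to the GC box GGGCGG, read on both strands, in capitals.
Klf4: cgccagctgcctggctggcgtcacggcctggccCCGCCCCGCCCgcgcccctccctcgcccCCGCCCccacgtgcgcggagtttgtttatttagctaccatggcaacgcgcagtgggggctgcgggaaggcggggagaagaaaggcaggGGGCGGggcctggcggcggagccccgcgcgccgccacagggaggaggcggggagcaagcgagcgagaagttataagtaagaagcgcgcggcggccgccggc
Klf3 lies at chr5:64803271-64803520 on the plus strand, with matches to CACCC, read on both strands, in capitals.
Klf3: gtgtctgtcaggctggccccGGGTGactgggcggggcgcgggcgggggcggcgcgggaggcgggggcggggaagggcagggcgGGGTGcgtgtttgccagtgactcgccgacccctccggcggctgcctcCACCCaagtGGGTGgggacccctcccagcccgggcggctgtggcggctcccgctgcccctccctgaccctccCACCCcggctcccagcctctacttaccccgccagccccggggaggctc

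Klf2 was the 1 member of the 8 with a match to this MEF2 core, starting at base -118 from the start site, and 3.2% of all 32851 windows of this length held one. Klf3 had 5 matches to CACCC, Klf7 had 3, Klf2, Klf9, Klf12 and Klf13 had 1 each, and Klf4 and Klf6 had 0, beside 52% of all windows with at least 1. GGGCGG matched 6 times in Klf3, 4 times in Klf4, 3 times in Klf13, 2 times in Klf2, once each in Klf6 and Klf7, and in neither Klf9 nor Klf12, beside 32.7% of all windows with a match. Matches of these 2 motifs can share bases with each other. No CArG box, the site of serum response factor in immediate early genes, was found in the 8 windows, and 1.47% of all windows held one. The activator protein 1 motif TGANTCA matched once, in Klf9, beside 6.75% of all windows. TGACG, the core of the cyclic AMP response element, matched once each in Klf2, Klf4, Klf9, Klf12 and Klf13, which is 5 of the 8 windows, beside 17.8% of all windows. All motifs were read on both strands. GC content was 48.0% for Klf12 and 59.2% to 78.4% for the other 7 members, beside a median of 52.4% over all windows. These matches are letters in a window and not measured binding.

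Of the 10 members, 7 passed the limit of every array, beside 36.8% of all genes. These were Klf2, Klf3, Klf5, Klf6, Klf7, Klf10 and Klf12. Klf4, Klf9 and Klf13 missed it, each on array 1 alone, so that 7 members passed the limit on array 1 and 10 on each of arrays 2 and 3. Without array 1 the count was 10 of 10, beside 46.9% of all genes. With the 99th percentile of the receptor genes as the limit it was 4 of 10, beside 17.4%, and with the 90th percentile 10 of 10, beside 50.6%. With vomeronasal and taste receptor genes alone, a choice made after seeing the data, it was also 10 of 10, beside 52.8%. The median of the members' mean levels was 6.95 log2, beside 5.96 over all genes and 7.17 over the genes above the range. These are summaries of array signal, and neither count nor median was tested against other genes.

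**Figure D1:**
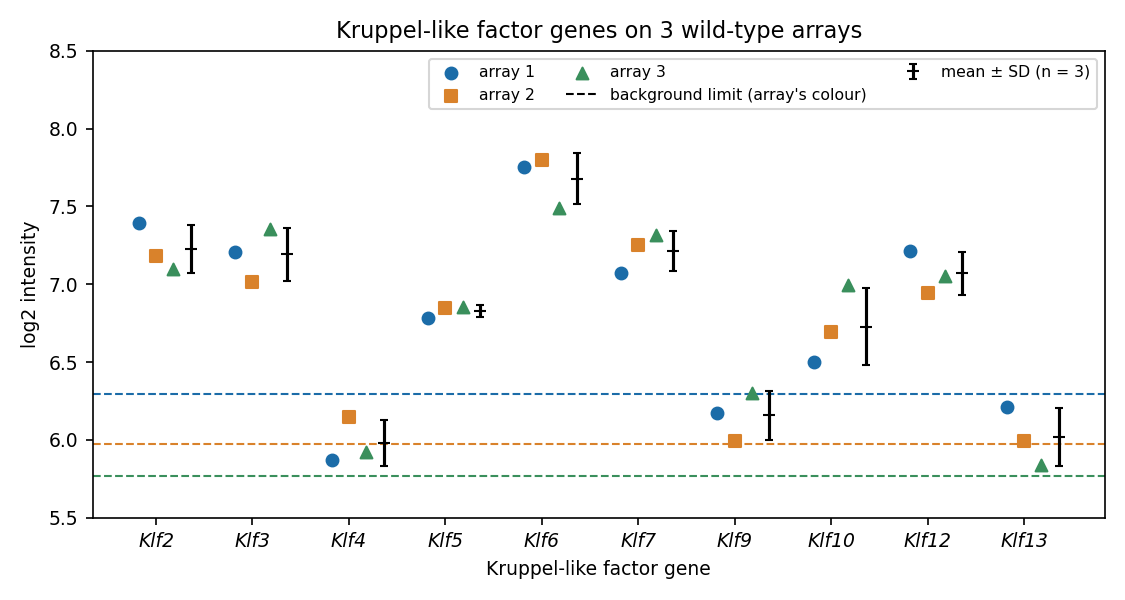
Log2 intensity of the 10 Kruppel-like factor genes (x axis) on arrays 1, 2 and 3 (circles, squares and triangles), with the mean and SD beside them in black and each array's background limit as a dashed line of its colour. The array 1 points of Klf4, Klf9 and Klf13 lie below the limit of array 1, and their other points lie above their own array's limit. All points of the other 7 genes lie above all 3 limits. Heights of different genes are not comparable.

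Klf2, Klf4, Klf5, Klf6 and Klf7 act mainly as activators, and all but Klf4 were above the range. Klf6, the factor of yolk sac blood formation, was at 7.75, 7.80 and 7.49 log2 on arrays 1, 2 and 3, a mean of 7.68 ± 0.17. These values were 1.45, 1.82 and 1.72 above the limits of the arrays. Arrays 1 and 2 were close together and array 3 was the lowest. Genes within 0.5 log2 of its mean level went the other way by their medians, at -0.09, -0.04 and 0.12 from their own means, while Klf6 deviated by 0.07, 0.12 and -0.19.

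Klf2, the quiescence and trafficking factor, was at 7.40, 7.18 and 7.10 log2 on arrays 1, 2 and 3, a mean of 7.23 ± 0.15. Its highest value, on array 1, was 1.23 times its lowest, and all 3 values were at least 1.10 above the array's limit. Klf4, its close relative and a monocyte regulator, was at 5.87, 6.15 and 5.92, a mean of 5.98 ± 0.15. It lay 0.42 below the limit on array 1 (a margin of -0.42) and 0.17 and 0.16 above it on arrays 2 and 3. Its margin on arrays 2 and 3 was about as large as its SD. Of the 9 measured genes of the monocyte, macrophage and dendritic list, Lyz2, Cd68, Cx3cr1 and H2-Ab1 were above the range, at 9.61 ± 0.61, 7.14 ± 0.12, 6.58 ± 0.29 and 6.80 ± 0.49. Csf1r, Adgre1, C1qa and Itgax were below the limit on every array, and Ccr2 missed that of array 1 alone. What part such cells had in the Klf4 values was not tested.

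Klf5, a growth-promoting factor of epithelia that also acts in homing of mouse stem and progenitor cells to the marrow, was the member with the smallest spread. It was at 6.78, 6.85 and 6.85 log2 on arrays 1, 2 and 3, so that its highest value was 1.05 times its lowest. Klf7, known from neuronal development, was at 7.07, 7.25 and 7.32, a mean of 7.21 ± 0.13. Array 1 was the lowest for both genes, and both were above every limit.

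Klf3 and Klf12 repress by recruiting the corepressor CtBP, and both were above the range. Klf3, a factor that competes for CACCC boxes, was at 7.21, 7.01 and 7.35 log2 on arrays 1, 2 and 3, a mean of 7.19 ± 0.17, with array 2 the lowest. Klf12, first described as a repressor of the gene for transcription factor AP-2 alpha, was at 7.22, 6.94 and 7.05, a mean of 7.07 ± 0.14, also with array 2 the lowest. The corepressor genes Ctbp1 and Ctbp2 were above the range at 7.28 ± 0.02 and 6.53 ± 0.06. Tfap2a, which encodes AP-2 alpha, was below the limit on every array at 4.30 ± 0.19.

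Klf9, Klf10 and Klf13 bind the corepressor Sin3, and 1 of these 3 was above the range on all arrays. Klf10, known as a gene induced early by TGF-beta, was at 6.50, 6.69 and 6.99 log2 on arrays 1, 2 and 3, a mean of 6.73 ± 0.25. Its margins over the limits of arrays 1, 2 and 3 were 0.20, 0.71 and 1.23, and its highest value was 1.41 times its lowest, the widest ratio among the 10 members. Klf9, a hormone-responsive factor, was at 6.18, 5.99 and 6.30, a mean of 6.16 ± 0.16. It missed the limit of array 1 by 0.12 (a margin of -0.12), passed that of array 2 by 0.02 and that of array 3 by 0.54. Klf13, which drives Ccl5 in T cells, was at 6.21, 6.00 and 5.84, a mean of 6.02 ± 0.19. Klf13 lay within 0.1 of every limit, with margins of -0.08, 0.02 and 0.08, so its call rests on differences smaller than its own spread. The genes Sin3a and Sin3b were above the range at 7.98 ± 0.20 and 6.67 ± 0.14.

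The replicates are the only contrast in this design, so each gene's variance over the arrays was set against the variance trend at its level in a limma fit over all 19938 genes (one-sided F test). None of the 10 members was called varying by this test, and 0% of all genes were. With 2 and 4.34 degrees of freedom and adjustment over 19938 genes, only a spread many times its trend could be called. The B cell gene Vpreb1, with an SD 5.59 times its trend, still had an adjusted limma p of 0.831. The count of 0 therefore says little about how stable the members were. The limma p of the members ran from 0.497 for Klf10 to 0.982 for Klf5 before adjustment and was 0.997 or 0.998 after Benjamini-Hochberg adjustment over all genes. At an unadjusted p under 0.05 the limma count was 0 of 10 members, beside 5.1% of all genes. The smallest adjusted limma p of any gene was 0.744. A missed threshold with 3 arrays does not show equal levels: the 95% interval of the SD ran from 0.02 to 0.24 log2 for Klf5 and from 0.13 to 1.56 log2 for Klf10, assuming normal errors.

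The members' SDs lay between 0.04 and 0.25 log2, with a median of 0.16, beside a median of 0.22 over all genes. All 10 were smaller than the fitted trend at their level, from 0.14 times the trend for Klf5 to 0.91 times for Klf10, and 56.2% of all genes were also under their trend. The difference between a gene's highest and lowest array exceeded 0.5 log2 in 0 of 10 members and in 41% of all genes. Klf10 came nearest, at 0.49.

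**Figure D2:**
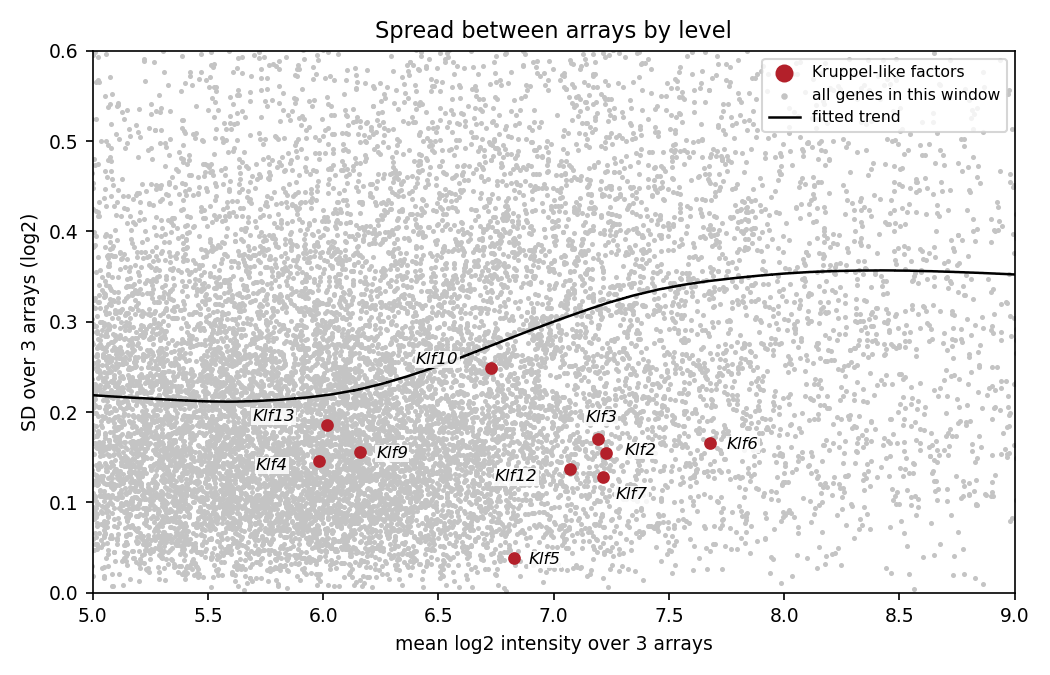
SD over the 3 arrays (y axis, log2) against mean log2 intensity (x axis) for the 10 Kruppel-like factors (red, named), for genes in the plotted window (grey) and for the fitted trend (black line). All 10 red points lie below the line, Klf10 closest to it and Klf5 farthest; 13730 of the 19938 genes fall inside the window.

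The members did not share one order of the arrays. Array 1 was the highest for 3 of them (Klf2, Klf12 and Klf13), array 2 for 2 (Klf4 and Klf6) and array 3 for 5 (Klf3, Klf5, Klf7, Klf9 and Klf10). Of all 19938 genes array 1 was the highest for 6306 (31.6%), array 2 for 7691 and array 3 for 5941. Of the 7345 genes above the range array 3 was the highest for 2978. The mean over the 10 members was 6.82, 6.79 and 6.82 log2 on arrays 1, 2 and 3, so shifts of single members in both directions left it nearly level. With 3 arrays, likeness of pattern carries little information: 131 of the 7345 genes above the range deviated from their means within a root mean square difference of 0.05 log2 of Klf10. The nearest 5 were Zfp113, Nol12, Kdelr1, Celf1 and Ndufb9, at differences of 0.0029, 0.0064, 0.0086, 0.010 and 0.013 log2.

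Immediate early genes are the class of rapidly induced genes to which several Kruppel-like factors belong. Highest on array 1 were 3 of 10 Kruppel-like factors and 12 of 20 measured immediate early genes, beside 31.6% of all genes. All 6 immediate early genes that missed at least 1 limit (Fos, Fosb, Egr2, Atf3, Nr4a1 and Nr4a2) were among those 12. Of the genes above the range 30.2% were highest on array 1. The receptor genes that set the background limit were highest there in 49.6%. Above the background range were 14 of the 20, beside 36.8% of all genes. The median SD was 0.16 log2 for the Kruppel-like factors and 0.30 for the immediate early genes, beside 0.26 for the genes above the range. Below the variance trend were 10 of 10 Kruppel-like factors and 10 of 20 immediate early genes, beside 56.2% of all genes. The mean of the immediate early genes was 7.30, 6.86 and 6.95 log2 on arrays 1, 2 and 3. Of these genes 14 of 20 were lowest on array 2, beside 5737 of all 19938 genes, so array 2 was low as well as array 1 high. The arrays differed in other lists too: 10 of 12 granulocyte genes were lowest on array 1, beside 6807 of all 19938 genes. The eosinophil granule gene Prg2 was at 8.08, 6.32 and 5.96 on arrays 1, 2 and 3. In its list 3 of 6 genes were highest on array 1, and Epx, another eosinophil gene, was below every limit. The B cell gene Vpreb1 was highest on array 3, at 5.81, 6.38 and 9.02 on arrays 1, 2 and 3. Its list did not share this: 3 of 7 genes were highest on array 3 and 4 of 7 lowest there. Of all 19938 genes, 5941 were highest and 7394 lowest on array 3. What part other cells had in the immediate early values was not tested. Fos was at 6.94, 5.57 and 5.74 and Fosb at 6.71, 5.76 and 6.07, both highest on array 1. Fos was below the limit on arrays 2 and 3, and Fosb on array 2, so these contrasts are with values at background level. Jun was at 7.95, 7.47 and 7.72 and Junb at 6.48, 6.31 and 6.55. Egr1 at 8.09, 6.96 and 6.92 and Btg2 at 7.92, 6.77 and 6.58, named after their values were seen, also peaked on array 1. Of the members known as rapidly induced, Klf2 was 0.17 above its own mean on array 1, Klf6 0.07 above, Klf4 deviated by -0.11 and Klf10 by -0.23. The difference between the lists was not tested, and 0 immediate early genes varied by limma after adjustment, with 1 of 20 at an unadjusted p under 0.05.

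**Figure D3:**
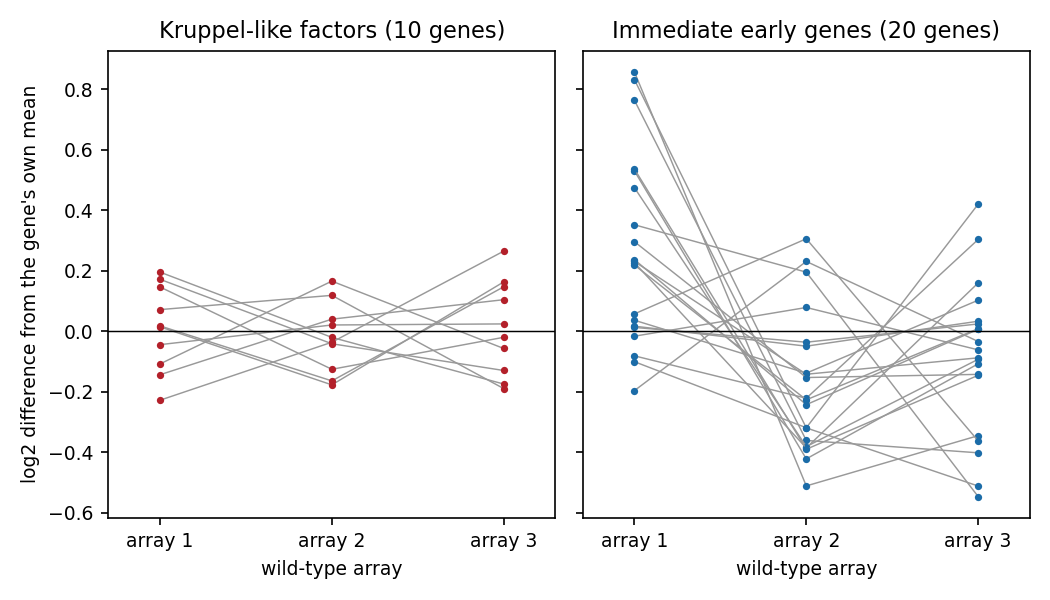
Difference of each gene from its own mean (y axis, log2) on each wild-type array (x axis) for the 10 Kruppel-like factors (left, red) and the 20 immediate early genes (right, blue), with grey lines joining the points of a gene. The Kruppel-like factors stay between -0.23 and 0.26 on every array. Of the 20 immediate early genes 12 have their highest value on array 1 and 14 their lowest on array 2. All 6 immediate early genes that missed a background limit are among those 12.

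The SP genes are the nearest relatives of the family, with the same kind of zinc fingers. Of the other Kruppel-like and SP genes 6 of 15 measured, or 40%, were above the range, near the 36.8% of all genes. Klf11, a Sin3-binding relative of Klf10, was above it at 6.95 ± 0.09 log2, as were Klf14 at 6.72 ± 0.10 and Klf16 at 7.26 ± 0.20. Of the SP genes the broadly expressed Sp1, Sp3 and Sp4 were above it at 6.92 ± 0.17, 7.35 ± 0.02 and 6.68 ± 0.10. Sp3 averaged 2 probe sets that disagreed in level, at 8.24 ± 0.15 and 6.46 ± 0.14, both above every limit. The tissue-restricted Sp5, Sp6, Sp7, Sp8 and Sp9 were below the limit on every array, at 5.53 ± 0.30, 5.58 ± 0.10, 5.44 ± 0.11, 5.49 ± 0.26 and 5.51 ± 0.38. So were Klf1 at 5.15 ± 0.27, Klf8 at 5.51 ± 0.35 and Klf17 at 4.96 ± 0.17. Klf15, a metabolic regulator of liver and muscle, passed the limit on array 3 alone at 6.02 ± 0.06. Klf8 is the CtBP-binding relative of Klf3 and Klf12, so of those 3 repressor genes Klf3 and Klf12 were above the range and Klf8 was not.

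The MEK5-ERK5 kinase route acts through MEF2 factors to induce Klf2 and Klf4 in endothelium. Of the list of this route and Foxo1, 7 of 8 measured genes were above the range, beside 36.8% of all genes. The kinase genes Map3k2, Map3k3, Map2k5 (MEK5) and Mapk7 (ERK5) were at 6.44 ± 0.39, 7.36 ± 0.27, 7.24 ± 0.27 and 6.63 ± 0.15 log2. Mef2a, Mef2c and Mef2d were at 7.66 ± 0.24, 8.27 ± 0.33 and 7.29 ± 0.32. Mef2d averaged 2 probe sets, at 7.51 ± 0.24 and 7.08 ± 0.81, the second of which missed the limit on array 1. Foxo1, which induces Klf2 in T cells, missed the limit on array 1 alone at 6.42 ± 0.17. The MEF2-type match before Klf2, printed above, and the Mef2 signals were measured separately, and no binding was assayed.

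Of 11 measured cofactor genes 9 were above the range, beside 36.8% of all genes. The acetyltransferase genes Ep300 and Crebbp, coactivators of several family members, were at 8.46 ± 0.07 and 9.09 ± 0.07 log2. Kat2b, another acetyltransferase gene, missed the limit on array 1 alone at 6.63 ± 0.33, and the deacetylase gene Hdac3 passed it on array 3 alone at 5.57 ± 0.39. Of 7 ubiquitin ligase genes that act on Kruppel-like proteins 4 were above the range, beside the same 36.8%. Wwp1, which targets Klf2 and Klf5, was at 6.99 ± 0.05, and Itch, which modifies Klf10, at 8.75 ± 0.33. Fbxw7, which targets Klf2 and Klf5, was at 6.91, 8.26 and 7.01 on arrays 1, 2 and 3, high on array 2. It averaged 2 probe sets that disagreed: 1 was at 7.32, 9.85 and 7.79 and the other at 6.50, 6.67 and 6.23 on the 3 arrays, so the high value on array 2 rests mainly on the first. The range over the arrays was 0.30 log2 for Klf2 and 0.07 for Klf5. These are RNA signals and cannot show an effect of a ligase, which acts on the protein. The ligase genes Smurf1, Vhl and Fbxo32 missed at least 1 limit, at 6.16 ± 0.34, 6.32 ± 0.07 and 6.02 ± 0.39.

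Of 13 measured genes reported as Kruppel-like factor targets in blood, endothelium or other tissues, 7 were above the range, beside 36.8% of all genes. S1pr1, the sphingosine phosphate receptor gene that Klf2 activates in T cells, was at 6.91, 6.80 and 7.31 log2 on arrays 1, 2 and 3 and above every limit. Its highest array was array 3, where Klf2 had its lowest value. The other Klf2 targets did not pass on all arrays: the integrin gene Itgb7 was at 5.66 ± 0.11, and the endothelial genes Thbd and Nos3, for thrombomodulin and nitric oxide synthase, were at 6.45 ± 0.41 and 5.86 ± 0.11. Ccl5, the target of Klf13, was above the range at 6.82 ± 0.20. Lgals3, which Klf3 represses in mouse cells, was above it at 7.34 ± 0.11.

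**Figure D4:**
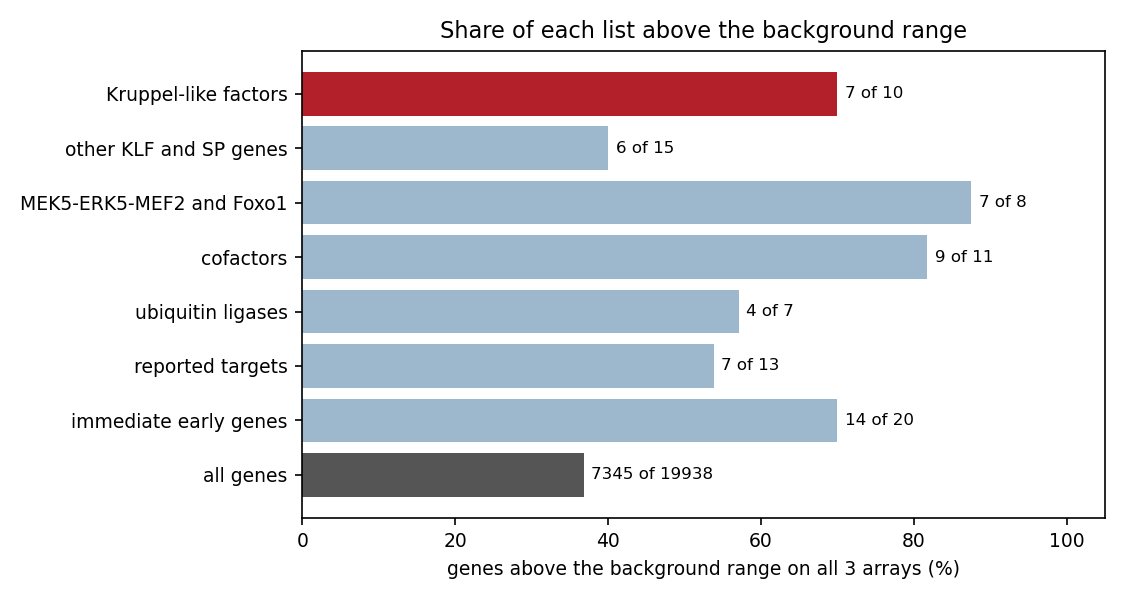
Share of measured genes above the background limit of every array (x axis, percent) for the Kruppel-like factors (red), the 6 accompanying lists (blue) and all genes (grey), with the counts beside the bars. The Kruppel-like factors stand at 7 of 10, the other KLF and SP genes at 6 of 15 and all genes at 7345 of 19938; the bars carry no test.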

How the data were processed

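The 3 arrays were biotin-labelled after RNA amplification, per the labels' protocols. Per the submitters' processing notes, the authors used RMA and Affymetrix Expression Console, and the deposited values were read as linear intensity, since they ran from 2.82 to 18384. RMA run over several arrays removes most array-wide differences. Versions, the arrays normalised together and the genome build were not given in the sources used here. Of 35554 probe sets, 21789 named 1 gene, 1621 several and 12144 were not listed; only the first kind was used. Log2 intensities of probe sets of a gene were averaged, with no pseudocount, which gave 19938 genes. The number of arrays limits the precision.

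Variation was tested with limma 3.58.1 in R 4.3.3, by a one-sided F test on 2 and 4.34 prior degrees of freedom with a robust trend, Benjamini-Hochberg adjustment and a threshold of 0.05; the code was tested on simulated data. Alternatives changed the background limit, probe set summary, normalization, pseudocount, variance prior, filter and arrays used. Motifs were searched in RefSeq promoter windows (GRCm38.p6) without the 50 bases after the start site. The members and lists were chosen with earlier results of these data known. All members and the other KLF and SP genes are named; of each remaining list the text was to name the first 4 measured genes and up to 5 on the rarer side of the limit, and cell type lists are given mainly by counts.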

Additional observations from a re-analysis of the deposited data

How the results depend on the processing

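With the 99th percentile of receptor genes as the limit, 4 of 10 members (Klf2, Klf3, Klf6 and Klf12) and 3469 of all genes were above the range; with the 90th percentile the counts were 10 and 10090. Leaving out each array in turn gave 7 to 10 members and 7380 to 9341 genes, and vomeronasal and taste receptor genes alone, an alternative chosen after seeing the data, gave 10 members and 10521 genes. Under quantile normalization, cyclic loess normalization and the brightest probe set, the same 7 members were above the range. The limma variation test called 0 members and 0 genes under each of its 10 alternatives. There the smallest unadjusted limma p of a member lay between 0.256 and 0.511. Since only a spread many times its trend could be called, this sameness says little about stability. A pseudocount of 16 raised the members' mean levels by 0.11 to 0.33 log2, by more than the SD for 6 of them (Klf4 6.31, Klf5 7.02, Klf7 7.36, Klf9 6.45, Klf12 7.23 and Klf13 6.34). Of the 16 accompanying and marker lists, the stricter limit moved the count of 14 by over 1.5 times, the looser limit that of 2 and leaving out array 1 that of 2 (B cell 4 and erythroid 5). No paired analysis was possible because all arrays belong to 1 group.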
